A study of Homo sapiens with 10 samples.

Results

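The genes described here are the nuclear hormone receptors, a family of transcription factors that are switched by small molecules. A fixed list of 36 receptor gene symbols was matched to the RNA-seq count table, and all 36 were found among its 31017 genes. Promoters were then placed by the fragment that holds the start of each gene, and 34 of the 36 genes had such a fragment among the captured promoters. HNF4G and NR2C2 had none in the interaction lists. The list is not the whole superfamily, and the receptors it leaves out (the retinoic acid, retinoid X and COUP-TF receptors and ESRRB) are given further on as partners.

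Most nuclear receptors carry a zinc finger DNA-binding domain and a pocket for a lipophilic ligand such as a steroid, thyroid hormone, fatty acid or oxysterol. Ligand binding exchanges corepressors for coactivators on the receptor, which sits on DNA at copies of a hexamer close to AGGTCA, or at a related palindrome for the steroid receptors. Many members are orphans, with no agreed ligand, and several of these (NR5A2, NR0B1, NR6A1, NR2E1) are best known from pluripotent cells or from the early nervous system.

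The comparison was between the human embryonic stem cell (ESC) line H9, kept in a defined pluripotency medium, and neuroectodermal cells (NECs) obtained from the same line by differentiation and harvested on day 7. RNA-seq and promoter capture Hi-C (PCHi-C) were each made in 2 biological replicates of each cell type, so all values come from 1 cell line. The 4 RNA-seq libraries held 19234087 to 25356382 counts on genes. Of 10 pluripotency markers, 10 were called lower in NECs, and of 10 neuroectoderm markers 9 were called higher, with OTX2 as the exception. Of markers for other lineages, 7 of 8 mesendoderm genes were called lower, 5 of 6 neuronal genes higher, and 3 of 8 neural crest genes higher with 1 lower. Summed neural crest markers stood at 284.3 and 154.3 CPM in NEC replicates 1 and 2, with most counts of SOX10, TFAP2A and TFAP2B in replicate 1. Summed pluripotency markers stood at 3799 and 4106 CPM (counts scaled by library size and TMM factor) in the ESC libraries and at 195.9 and 434.1 CPM in NEC replicates 1 and 2, and none of them was at 0 in both NEC libraries. The ESC libraries were sequenced in a different lane from the NEC libraries, so lane and cell type cannot be told apart.

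Between the cell types, 7 of the 27 receptor genes with enough counts to test changed past the threshold. PPARA and HNF4A were higher in NECs, and NR3C1, NR5A2, THRB, PGR and NR0B1 were lower. The threshold was a Benjamini-Hochberg adjusted p under 0.05 in edgeR's quasi-likelihood test and a log2 fold change beyond 1.5 in either direction, fitted and adjusted over all 17564 genes tested, of which 21% passed. In single directions, 11.4% of tested genes were called higher and 9.68% lower, against 2 and 5 of the 27 receptors. By the adjusted p alone, 9 receptors were higher and 9 lower, where 61.1% of all tested genes passed, 31.5% higher and 29.7% lower. The median log2 fold change of the tested receptors was 0.36, and that of all tested genes was 0.01. The remaining 9 receptors (ESR1, VDR, PPARG, NR1H4, NR1I2, NR2E1, NR2E3, NR5A1 and NR0B2) did not pass the filter on low counts and are given as counts. RNA was taken from whole cultures, so a lower value can come from fewer expressing cells or from less RNA per cell, which cannot be told apart.

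**Figure D1:**
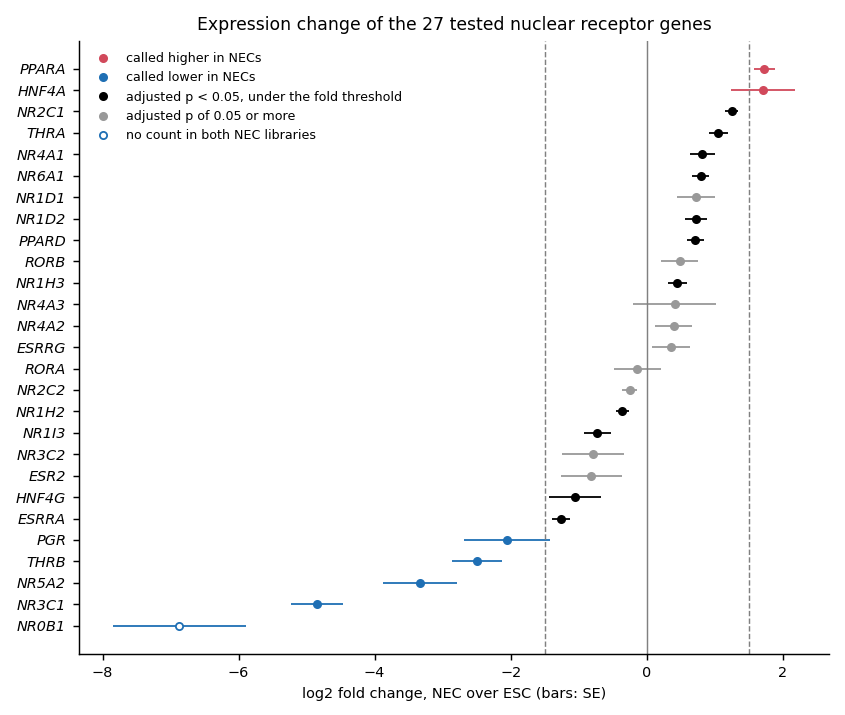
Log2 fold change of NECs over ESCs for the 27 receptor genes that passed the filter, ordered by size, with bars for the SE from edgeR and dashed lines at the fold threshold of 1.5. PPARA and HNF4A lie beyond the right-hand line and 5 genes beyond the left-hand line; the open point, NR0B1, had no count in either NEC library, so its position depends on the fit and is no measure of size.

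Steroid receptors were low or fell. NR3C1, the glucocorticoid receptor, had the largest change that was measured with counts in every library, with 74.4 and 57.7 CPM in ESCs and 1.12 and 3.36 CPM in NECs. That is a 28.7-fold fall (a log2 ratio of NECs over ESCs of -4.84 ± 0.38, SE; edgeR adjusted p = 0.000155), and the cell types did not overlap. Leaving out NEC replicate 2 moved it to -5.87 and leaving out NEC replicate 1 to -4.29. PGR, the progesterone receptor, was scarce throughout, with 14 and 18 counts in ESCs and 1 and 7 in NECs (log2 ratio -2.06 ± 0.63, SE; edgeR adjusted p = 0.0277). The PGR call was lost without ESC replicate 1, ESC replicate 2 or NEC replicate 1 and in DESeq2's Wald test, where adjusted p ran from 0.0899 to 0.13. ESR2, the beta estrogen receptor, had 8 to 24 counts in each library, and NR3C2, the mineralocorticoid receptor, had 10 to 20. Neither passed the test, with log2 fold changes of -0.81 and -0.79 and edgeR adjusted p values of 0.161 and 0.176. ESR1, the alpha estrogen receptor, had no count in ESC replicate 1 and 1 count in each other library.

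The estrogen-related receptors, orphans that regulate genes of energy metabolism, differed from each other in level and change. ESRRA stood at 37.9 and 43.2 CPM in ESCs and at 15.4 and 18.4 CPM in NECs, without overlap (log2 ratio -1.26 ± 0.13, SE; edgeR adjusted p = 0.000454), which is past the adjusted p and under the fold threshold. Part of its exons, 284 bases, overlaps TRMT112 on the opposite strand, and counting did not use strand. ESRRG lay between 1.70 and 2.53 CPM in all libraries, with a log2 fold change of 0.36 (edgeR adjusted p = 0.295).

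The thyroid hormone receptors differed in opposite directions. THRB fell 5.66-fold, from 4.61 and 3.27 CPM in ESCs to 0.514 and 0.851 CPM in NECs (log2 ratio -2.50 ± 0.37, SE; edgeR adjusted p = 0.00158). THRA, which encodes the alpha receptor of the same hormone, was 2.07-fold higher, from 18.5 and 16.3 CPM to 39.2 and 32.7 CPM (log2 ratio 1.05 ± 0.14, SE; edgeR adjusted p = 0.00098), past the adjusted p but not the fold threshold. In neither gene did the cell types overlap. THRA shares 473 exonic bases with NR1D1 on the other strand, so a part of their reads cannot be assigned to either gene. VDR, the vitamin D receptor, had 8 and 10 counts in ESCs and 2 and 1 in NECs and was not tested.

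Among the fatty acid and sterol sensors, PPARA had the clearest rise. This receptor, which drives fatty acid oxidation genes, rose 3.31-fold from 5.08 and 4.81 CPM to 16.7 and 16.04 CPM (log2 ratio 1.73 ± 0.16, SE; edgeR adjusted p = 0.000254), and its call held without each library in turn. HNF4A, a regulator of liver and gut genes, went from 12 and 15 counts to 27 and 69 counts (log2 ratio 1.71 ± 0.47, SE; edgeR adjusted p = 0.0186). The HNF4A value rested mostly on NEC replicate 2: without that library it was 1.02 (edgeR adjusted p = 0.0885), and without ESC replicate 2 it was 1.67 (edgeR adjusted p = 0.0719). The summed mesendoderm markers, which include endoderm genes, stood at 90.33 and 216.2 CPM in ESCs and at 7.482 and 7.534 CPM in NECs. The part of endoderm cells in the HNF4A counts was not tested.

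Smaller differences passed the adjusted p alone in the rest of that group. PPARD, the widely expressed PPAR, was higher in NECs, from 21.7 and 21.2 CPM to 38.2 and 32.3 CPM (log2 ratio 0.71 ± 0.12, SE; edgeR adjusted p = 0.00276). The liver X receptors, which sense oxysterols, differed in direction. NR1H3 was at 11.8 and 12.5 CPM in ESCs and 17.7 and 15.6 CPM in NECs (log2 ratio 0.45 ± 0.14, SE; edgeR adjusted p = 0.0308). NR1H2 was at 38.3 and 38.7 CPM and then 30.4 and 29.7 CPM (log2 ratio -0.36 ± 0.09, SE; edgeR adjusted p = 0.0159). Exons of NR1H2 overlap those of NAPSA over 1182 bases, and those of NR1H3 overlap ACP2 over 189 bases. HNF4G had 23 and 28 counts in ESCs and 9 and 17 in NECs (log2 ratio -1.06 ± 0.38, SE; edgeR adjusted p = 0.0479). PPARG, the adipocyte receptor, had 2 counts in each ESC library and 9 and 10 in NECs. NR1H4, the bile acid receptor, had no count in any library.

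The xenobiotic receptors, known for detoxification in liver, were weakly counted. NR1I3 stood at 6.83 and 7.68 CPM in ESCs and 4.26 and 4.496 CPM in NECs (log2 ratio -0.73 ± 0.20, SE; edgeR adjusted p = 0.0178), with 663 exonic bases shared with TOMM40L on the other strand. NR1I2 had 2 counts in NEC replicate 1 and none in the other libraries. Of the circadian receptors, which bind the same response elements as activators (RORA and RORB) or repressors (NR1D1 and NR1D2), only NR1D2 passed the adjusted p, with 22.9 and 18.6 CPM in ESCs and 38.1 and 30.1 CPM in NECs (log2 ratio 0.72 ± 0.16, SE; edgeR adjusted p = 0.00879). NR1D1 had a similar log2 fold change of 0.72 with a wider error (SE 0.28; edgeR adjusted p = 0.0612), since its NEC replicates lay at 8.42 and 5.19 CPM. RORB was at 1.58 to 2.29 CPM in the 4 libraries (log2 fold change of 0.49; edgeR adjusted p = 0.164). RORA was at 12.7 and 6.10 CPM in ESCs and 9.35 and 7.62 CPM in NECs, so the cell types overlapped, and the sign of its log2 fold change of -0.14 turned when ESC replicate 1 was left out (0.45).

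Among the tailless and testicular receptors, NR2C1 had the firmest increase of the family by adjusted p. NR2C1, an orphan repressor, went from 33.4 and 31.3 CPM to 77.6 and 76.0 CPM (log2 ratio 1.25 ± 0.09, SE; edgeR adjusted p = 0.000118), a 2.38-fold difference under the fold threshold. Its paralog NR2C2 stayed between 21.0 and 25.6 CPM (log2 fold change of -0.25; edgeR adjusted p = 0.083), and 7157 of its 11822 exonic bases overlap MRPS25 on the other strand. NR2E1, the tailless receptor of neural stem cells, had no count in either ESC library and 56 and 6 counts in NEC replicates 1 and 2. With a floor of 3 counts over the ESC libraries this is at least 19.6-fold higher, and the bound falls to 3.53 without NEC replicate 1 and rises to 38.1 without NEC replicate 2. NR2E3, the photoreceptor member, had 6 and 3 counts in ESCs and 0 and 4 in NECs.

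The NR4A receptors are immediate early genes that act without a ligand. NR4A1 was at 17.9 and 13.7 CPM in ESCs and 31.0 and 24.4 CPM in NECs (log2 ratio 0.81 ± 0.18, SE; edgeR adjusted p = 0.00851). NR4A2, which specifies dopaminergic neurons, lay between 1.94 and 3.09 CPM (log2 fold change of 0.39; edgeR adjusted p = 0.249). NR4A3 could not be placed: its ESC replicates had 43 and 13 counts and its NEC replicates 38 and 45. Its log2 fold change of 0.41 became 1.74 without ESC replicate 1 (edgeR adjusted p = 0.0258) and -0.34 without ESC replicate 2.

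NR5A2 and NR0B1, receptors tied to pluripotency, fell, while NR6A1 was higher in NECs. NR5A2, which can stand in for POU5F1 during reprogramming, went from 9.21 and 15.2 CPM to 0.468 and 1.90 CPM, a 10.1-fold fall (log2 ratio -3.33 ± 0.54, SE; edgeR adjusted p = 0.00237). Both cell types varied between replicates, and the log2 fold change was -2.68 without NEC replicate 1 and -4.70 without NEC replicate 2. NR0B1, which lacks the usual DNA-binding domain and represses NR5A proteins, had 14 counts in each ESC library and none in either NEC library. It was at least 9.86-fold lower, with the floor of 3 counts taken over the NEC libraries (edgeR adjusted p = 0.0023), and at least 4.57-fold without NEC replicate 2 and 5.28-fold without NEC replicate 1. Without either ESC replicate it no longer passed the filter, so its call was lost, and the bounds were 8.69 and 11.4. Its relative NR0B2 had 2 counts in ESC replicate 1 and none elsewhere. NR5A1, the steroidogenic factor, had 5 and 4 counts in ESCs and 30 and 10 in NECs, too few to pass the filter. NR6A1, an orphan that silences POU5F1 in the mouse embryo, was at 230.7 and 204.5 CPM in ESCs and at 342.1 and 412.6 CPM in NECs (log2 ratio 0.79 ± 0.13, SE; edgeR adjusted p = 0.00209).

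NEC replicate 2 held more of the summed pluripotency markers than NEC replicate 1, and the receptors that fell followed the same order. In NEC replicates 1 and 2, NR3C1 had 24 and 83 counts, NR5A2 10 and 47, THRB 11 and 21 and PGR 1 and 7. The part of remaining pluripotent cells in these values was not tested. NR0B1 was at 0 in both.

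Promoter sequence is shown for 3 of the changed receptors, which were chosen with their changes known. Of the 5 that fell, 2, NR5A2 and NR0B1, carry in it the hexamer that receptors of this family bind. PPARA rose and does not carry it. The sequences are RefSeq promoters (GRCh38.p14), each cut to the 250 bases before the start and placed on GRCh37 by exact match, and they are written 5′ to 3′ on the strand of the gene with AGGTCA in capitals. NR5A2 lies at chr1:199996588-199996837 on the plus strand, NR0B1 at chrX:30327508-30327757 on the minus strand and PPARA at chr22:46546179-46546428 on the plus strand. All 3 windows lie inside the captured promoter fragment.
NR5A2: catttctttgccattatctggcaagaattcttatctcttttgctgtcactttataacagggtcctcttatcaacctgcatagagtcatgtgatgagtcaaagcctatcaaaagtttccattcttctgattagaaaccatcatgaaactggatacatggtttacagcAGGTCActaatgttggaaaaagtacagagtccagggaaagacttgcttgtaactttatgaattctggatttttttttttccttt
NR0B1: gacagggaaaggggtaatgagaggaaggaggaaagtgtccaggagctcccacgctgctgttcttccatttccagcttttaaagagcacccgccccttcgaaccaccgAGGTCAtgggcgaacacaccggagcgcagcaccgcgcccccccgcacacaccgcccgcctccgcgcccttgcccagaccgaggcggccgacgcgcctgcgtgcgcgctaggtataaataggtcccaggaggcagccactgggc
PPARA: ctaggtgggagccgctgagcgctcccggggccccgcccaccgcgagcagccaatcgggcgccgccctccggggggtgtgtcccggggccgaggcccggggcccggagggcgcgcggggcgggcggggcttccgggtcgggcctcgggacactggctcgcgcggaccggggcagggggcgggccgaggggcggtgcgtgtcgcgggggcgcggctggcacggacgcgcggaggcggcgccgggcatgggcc
The capitals begin at position -84 in NR5A2 and at position -143 in NR0B1, counted from -1 at the base before the start. The NR5A2 window is 36% G and C with 0 CpG, that of NR0B1 is 65.2% with 22 CpG, and that of PPARA is 84.4% with 41 CpG. Over all RefSeq promoters the medians were 58% and 11 CpG. For each receptor gene only the RefSeq promoter placed nearest to its start in the count table was read, and other promoters of the gene were not. Of 32 receptor genes with a RefSeq promoter, 5 held AGGTCA on either strand in this window (NR5A2, NR0B1, NR1H3, NR1H4 and PPARG), and 12.1% of all 35116 promoters did. The NR1H4 window lay 29652 bases from that start and outside the captured fragment. The hexamer did not go with a fall throughout. NR1H3 was higher in NECs by the adjusted p alone, PPARG had 2 counts in each ESC library and 9 and 10 in NECs, and NR1H4 had none. NR3C1, THRB and PGR fell without it in the window read. The hexamer is a match of letters and not a measured binding site.

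Ordered by level per length, in CPM per kb of exons, the family was led by NR6A1 in both cell types, with 30.5 ± 2.60 in ESCs and 53.0 ± 7.00 in NECs (SD, n = 2). In ESCs ESRRA came next (13.1 ± 1.22, SD), followed by NR3C1 (7.21 ± 1.29) and NR1H2 (7.21 ± 0.0596), which did not differ beyond their spread, and then NR2C1 (5.01) and PPARD (4.82). In NECs NR2C1 was second (11.9 ± 0.184, SD), followed by PPARD (7.91 ± 0.927), NR1D2 (5.88 ± 0.983), NR1H2 (5.63 ± 0.105) and ESRRA (5.44 ± 0.675), and these last 3 overlapped within their SD. The glucocorticoid receptor moved from rank 3 to rank 19, at 0.245 ± 0.173 CPM per kb in NECs. NR5A2 moved from rank 13 to 23 and THRB from 18 to 26, while PPARA moved from 17 to 13.

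**Figure D2:**
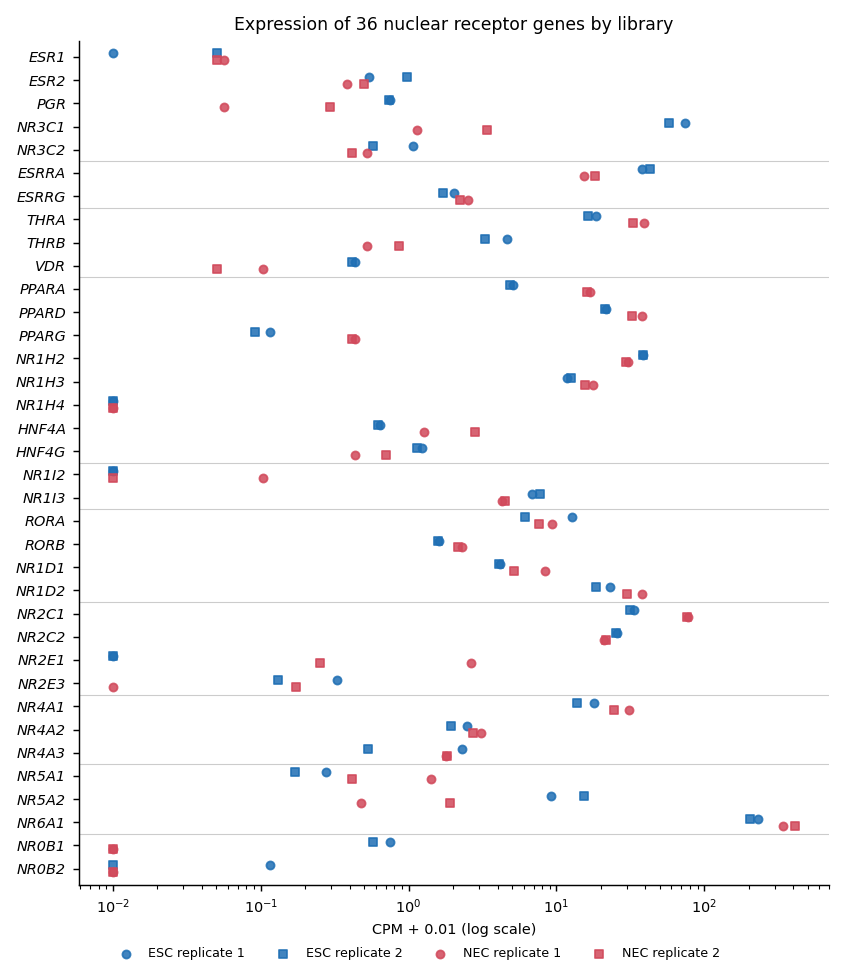
CPM plus 0.01 on a log scale for the 36 receptor genes, with ESC libraries in blue and NEC libraries in red, circles for replicate 1 and squares for replicate 2, and lines between the role groups. Points at the left edge had no count; NR3C1 runs from 74.4 and 57.7 CPM in ESCs to 1.12 and 3.36 CPM in NECs, and NR6A1 is highest in all 4 libraries.

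Receptors act with partners, so the genes around them were counted from fixed lists. Of 88 tested partner, ligand and target genes out of 96 listed, 12 were called higher and 6 lower, with a median log2 fold change of -0.03. Over all 17564 tested genes, 11.4% were called higher and 9.68% lower, and the counts of each list stand beside these shares. No list was tested as a set. Among 10 receptors outside the family list, 4 were called higher and none lower. NR2F1 and NR2F2, the COUP-TF receptors of the developing nervous system, went from 0 and 2 counts to 4252 and 3103 and from 1 and 2 counts to 2405 and 1869. RARB, a retinoic acid receptor, went from 45 and 62 counts to 226 and 291 (log2 ratio 2.19 ± 0.20, SE; edgeR adjusted p = 0.000251), and ESRRB from 3 and 2 counts to 30 in each NEC library. RXRA, the usual heterodimer partner, had a log2 fold change of 0.50 (edgeR adjusted p = 0.00317), under the fold threshold.

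Of 14 coactivators, 1 was called higher and 1 lower: NCOA6 (log2 fold change of 1.61) and PPARGC1B, the coactivator of ESRRA, at 400 and 577 counts in ESCs and 78 and 119 in NECs (log2 ratio -2.39 ± 0.18, SE; edgeR adjusted p = 0.000144). The NCOA6 value was 1.49 without ESC replicate 1 and so under the fold threshold. Of 9 corepressors, NRIP1 was called higher (log2 fold change of 1.84 ± 0.11, SE) and none lower. None of 10 chaperones of the steroid receptor complex was called, and the list's median log2 fold change was -0.46. By the adjusted p alone 7 were lower, among them FKBP4 (log2 fold change of -0.92), where 29.7% of all tested genes were lower. FKBP5, a chaperone that glucocorticoids induce, had 1907 and 2501 counts in ESCs and 2078 and 2551 in NECs (log2 fold change of -0.01; edgeR adjusted p = 0.919).

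Of 11 tested enzymes and carriers that make or clear ligands, out of 17 listed, 2 were called higher and 1 lower. DIO3, which inactivates thyroid hormone, went from 5 counts in each ESC library to 102 and 65 (log2 ratio 3.97 ± 0.48, SE; edgeR adjusted p = 0.000738), and CYP46A1, which makes the oxysterol of the brain, had a log2 fold change of 1.71. HSD11B2, which inactivates cortisol, went from 215 and 390 counts to 26 and 27 (log2 ratio -3.56 ± 0.26, SE; edgeR adjusted p = 0.000121). Among 10 tested steroid receptor targets 2 were called higher and none lower: ZBTB16, a glucocorticoid target and neural progenitor gene, from 0 and 3 counts to 713 and 693, and GREB1, an estrogen target (log2 fold change of 2.08 ± 0.09, SE).

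Of 13 tested lipid sensor targets, 2 were called higher and 2 lower. The PPARA targets CPT1A and ANGPTL4 were lower, at 509 and 1054 counts in ESCs against 33 in each NEC library for CPT1A (log2 ratio -4.60 ± 0.29, SE; edgeR adjusted p = 6.9e-05), and at 192 and 89 against 28 and 34 counts for ANGPTL4. Without ESC replicate 1 ANGPTL4 was at -1.44, under the fold threshold. Of the 2 called higher, ABCA1, a target of the liver X receptors, rose in both NEC libraries (log2 ratio 2.41 ± 0.15, SE; edgeR adjusted p = 6.8e-05). Of 13 circadian partners none was called higher and 2 lower, BHLHE40 and BHLHE41. Both were high in ESC replicate 1, with 1001 against 140 counts and 145 against 13 counts in ESC replicate 2. BHLHE40 lost its call without ESC replicate 1 (log2 fold change of -1.20) and without NEC replicate 1 (edgeR adjusted p = 0.0695), and BHLHE41 without NEC replicate 2 (edgeR adjusted p = 0.06).

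**Figure D3:**
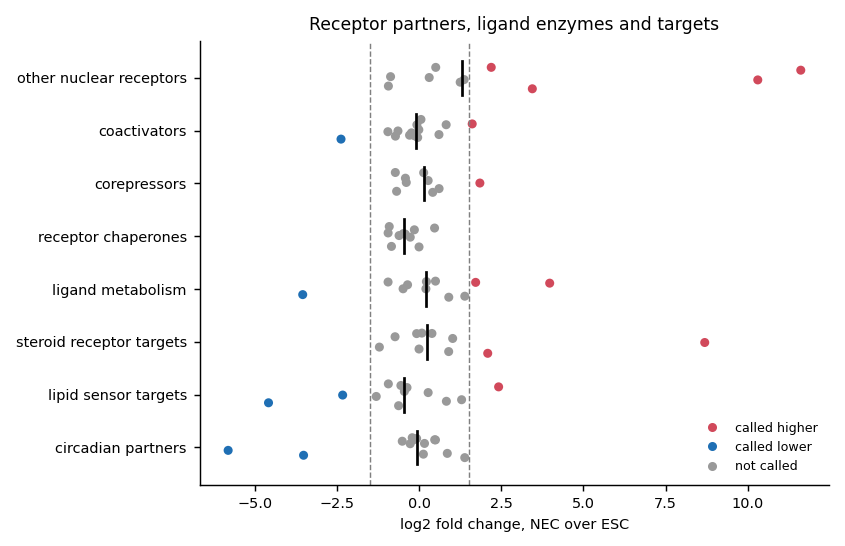
Log2 fold change of NECs over ESCs for the tested genes of the 8 partner, ligand and target lists, with a black bar at each list's median and dashed lines at the fold threshold of 1.5 (genes with no count in either library of a cell type are not drawn). Called genes lie on both sides in the coactivator, ligand and lipid target lists, and 4 of the 10 other receptors lie to the right.

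Promoter contacts were taken from PCHi-C, in which a Hi-C library is enriched for ligations that involve a captured promoter. A promoter-interacting region (PIR) is here a HindIII fragment called with that promoter at a CHiCAGO score of at least 12. The score is a weighted p-value on a negative log scale, so a higher score is stronger evidence of a contact above background. Distances run between the centres of the captured fragment and the PIR. In the lists that merge both replicates of a cell type, 159 PIRs were called for the 34 receptor promoters in ESCs and 150 in NECs, and 71 were the same fragment in both, which is 44.7% of the ESC PIRs and 47.3% of the NEC PIRs, and over all 18038 promoter fragments the shares were 45.1% and 44.7%. Receptor promoters had a median of 2.5 PIRs (ESCs) and 2 PIRs (NECs), where the median over all promoter fragments was 3 in each. The PIRs lay at median distances of 184.7 and 190.7 kb against 193.4 and 215 kb overall. Receptor PIRs were themselves captured promoters in 27.7% and 26.7% of cases, against 32% overall in both cell types. Only 27% of the receptor PIRs in ESCs and 18% of those in NECs were called in both replicates of the cell type (23% and 21.4% overall), so most calls rested on 1 replicate or on the merged data. No read numbers accompany the scores, and the depth behind them is unknown.

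PIR numbers of the cell types were compared by their replicate ranges, and the counts of receptors were not tested against the shares over all promoter fragments. Replicate ranges lay apart, with more PIRs in NECs, for 3 of 34 promoters (ESR1, NR1H2 and NR2E1), where 13.6% of all promoter fragments did so, and with fewer PIRs in NECs for 3 (ESR2, THRA and NR1H3), where 12.7% did. With 2 replicates against 2, the smallest two-sided exact permutation p is 0.333, so no test was made. For NR2E1 there were 5 and 4 PIRs in single ESC replicates against 11 and 8 in NECs, and 10 and 16 in the merged lists. ESR2 had 7 in each ESC replicate and 2 and 3 in NECs, and 6 and 1 in the merged lists. THRA had 7 and 6 and then 4 and 2, with 14 and 8 in the merged lists. For NR2E1 the merged and replicate lists moved the same way as its counts, and for THRA they moved the other way. ESR1 (1 and 5, then 7 and 6) and NR1H2 (0 and 1, then 4 and 2) had 2 and 1 merged PIRs in NECs and none in ESCs, and NR1H3 (16 and 7, then 5 and 4) had 7 merged PIRs in each. The NR1H2 values are for its outermost start. Its inner captured fragment, with 7 transcript starts, had 1 and 4 PIRs in ESC replicates and 1 and 1 in NECs, which overlap. At a score of at least 15, 0 receptor promoters had more PIRs in NECs and 2 had fewer, and with PIRs that are not captured promoters 3 had more and 6 had fewer. Over the 18038 promoter fragments, these shares were 6.55% with more and 4.27% with fewer at a score of at least 15, and 12% and 11.3% with PIRs that are not captured promoters.

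**Figure D4:**
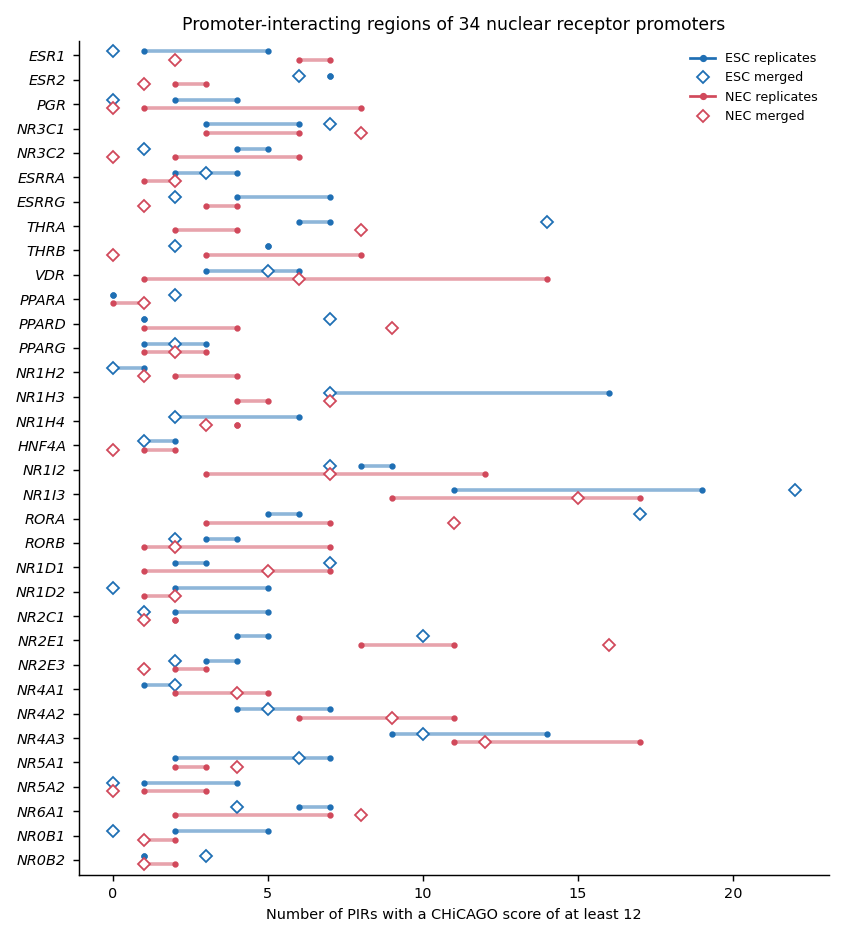
Number of PIRs with a score of at least 12 for the 34 receptor promoters, with ESCs in blue and NECs in red, dots joined by a line for the 2 replicates and open diamonds for the merged list. Lines of the cell types lie apart for ESR1, ESR2, THRA, NR1H2, NR1H3 and NR2E1, and NR1I3 has the most merged PIRs, 22 in ESCs and 15 in NECs.

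Of the 7 receptors whose expression was called, 6 had at most 2 merged PIRs in either cell type. Such numbers were common: the median was 2.5 in ESCs and 2 in NECs over the 34 receptor promoters. Over all promoter fragments it was 3 in each, with a lower quartile of 1. NR5A2 and PGR had no PIR in either merged list, although single replicates held 1 to 4 for NR5A2 and 1 to 8 for PGR. PPARA had 2 in ESCs and 1 in NECs, none shared, with scores up to 12.6, HNF4A had 1 in ESCs and NR0B1 had 1 in NECs. NR3C1 had 7 and 8, of which 3 were shared. A PIR of NR3C1 at chr5:142401194-142408570, 409.2 kb downstream in an intron of ARHGAP26, was called in both NEC replicates (15.51 in replicate 1 and just at the threshold in replicate 2) and in the merged NEC list (17.39) and in no ESC list. It was the highest score of that promoter, in the cells where NR3C1 was low. The captured fragment holds the outermost start of NR3C1, and no other start of the gene lay in a captured fragment of the lists.

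THRB had 2 merged PIRs, both in ESCs, both very distant and both captured fragments in introns of RARB. The fragment at chr3:25376906-25380133, 841.7 kb upstream, scored 18.09 and 15.95 in the ESC replicates and 16.45 in the merged list and was in no NEC list. That at chr3:25594495-25602084, 1061.5 kb upstream, scored 17.49 in the merged ESC list and was also called in NEC replicate 1 (13.09). The replicate lists held 5 THRB PIRs in each ESC replicate and 8 and 3 in NECs, so the number itself did not separate the cell types. THRB fell and RARB rose between the same cell types. THRA and NR1D1, neighbours on chromosome 17 that overlap tail to tail, shared contacts at chr17:38184024-38188973 in MED24, with merged scores of 17.50 and 12.49 from THRA and 15.68 and 13.85 from NR1D1 in ESCs and NECs. A fragment inside THRA itself, chr17:38237401-38242822, 23.2 kb from the promoter, was called in both ESC replicates (18.49 merged) and in no NEC list.

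Among contacts called from the receptor promoters, the highest merged score in each cell type was at NR6A1. NR6A1 contacted chr9:127615006-127632883, 91.3 kb upstream, a captured fragment with the starts of WDR38, RPL35 and ARPC5L, with merged scores of 37.93 in ESCs and 41.45 in NECs and 20.7 to 25.73 in the 4 replicates. NR5A1, its neighbour, contacted chr9:127281079-127286836 in an exonic fragment of NR6A1 in all 4 replicates (21.27 and 20.12 merged), 15.5 kb upstream of the centre of its captured fragment. From the NR6A1 promoter, the captured fragment of NR5A1 was called over 264.2 kb in ESCs (13.07 merged, 12.68 in replicate 2) and in no NEC list, and it was not called from the NR5A1 side. Among contacts between captured fragments that hold the start of a listed receptor there was 1 other, from THRB to NR1D2, called in ESC replicate 2 alone (12.44).

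Long contacts present in all 4 replicates were seen for NR4A2, NR4A3 and RORA. NR4A3 contacted the starts of ALG2 and SEC61B at chr9:101983271-101985453, 598.0 kb upstream, with merged scores of 29.45 and 20.51. NR4A2 contacted chr2:157741462-157749402, 545.8 kb upstream in a noncoding gene (17.94 and 20.72), and RORA contacted intergenic chr15:62123204-62126458, 599.8 kb upstream (21.64 and 15.72). NR4A1 had 2 and 4 merged PIRs. The SEC61B neighbourhood held a further NR4A3 PIR at chr9:101992809-101996439 that was called in both NEC replicates and in no ESC list (12.96 merged).

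**Figure D5:**
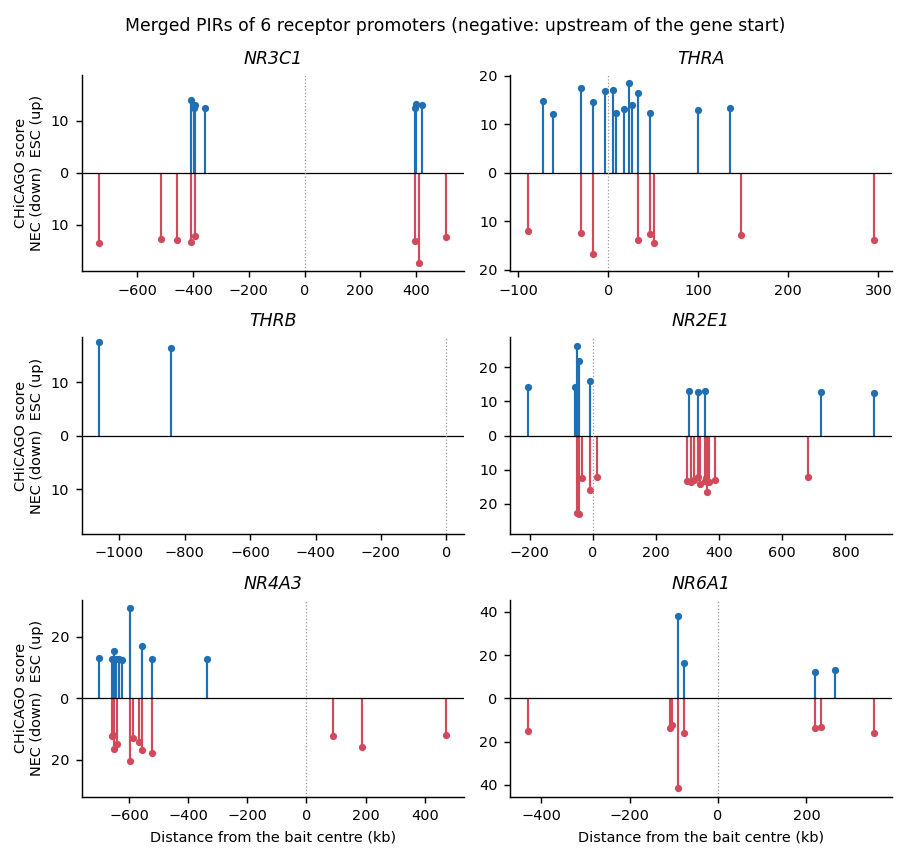
Merged PIRs of 6 receptor promoters by distance from the centre of the captured fragment, in kb along the direction of the gene, with the CHiCAGO score upward in blue for ESCs and downward in red for NECs. In the merged lists, the THRB contacts at -841.7 and -1061.5 kb are in ESCs alone, NR6A1 has its strongest contact at -91.3 kb in both cell types, and NR2E1 has more downstream contacts in NECs.

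Receptors with almost no RNA still had stable contacts. NR1I2, with 2 counts in all, had 7 PIRs in either merged list and 5 in common. Its contact with chr3:119463869-119472082 in CFAP91, 31.0 kb upstream, scored 23.47 and 28.19 in the merged lists, and that with the start of B4GALT4 at chr3:118948999-118960427, 544.2 kb upstream, scored 13.41 and 17.48, both in all 4 replicates. NR1H4, without a count, contacted chr12:100790784-100803442 in SLC17A8 in all 4 replicates (17.93 and 20.22 merged). NR2E1, without a count in ESCs, contacted chr6:108438689-108448025 in OSTM1, 45.2 kb upstream, in all 4 replicates (21.74 and 22.88). The adjoining chr6:108434605-108438688 had merged scores of 26.35 and 22.65 but no call in NEC replicate 1. The captured fragment of NR2E1 also holds the start of OSTM1, so these NR2E1 contacts cannot be assigned to either gene. ESR1 had a contact at chr6:152683573-152686948 in SYNE1, 706.9 kb downstream, called in both NEC replicates (13.92 merged) and in no ESC list, and its counts stayed at 1 or 0.

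Among the other receptors, ESR2 contacted the starts of ZBTB25 and ZBTB1 at chr14:64969844-64976222, 169.1 kb upstream, in all 4 replicates (18.44 and 16.37 merged), and 3 further PIRs in both ESC replicates and in no NEC list, the highest at chr14:64912073-64917154 (17.06 merged). NR1H3 contacted the start of MYBPC3, in a fragment that also holds exons of SPI1, at chr11:47370867-47391032 in all 4 replicates (16.43 and 18.44). NR1I3, with 14 shared PIRs, contacted intergenic chr1:161342878-161344452 in all 4 replicates (16.91 and 17.43), from a fragment that it shares with the start of TOMM40L. PPARD had 7 and 9 merged PIRs, and its highest was at chr6:35409659-35410648, 96.7 kb downstream (14.93 and 19.62). VDR had 5 and 6, the highest at chr12:48579023-48587385 (15.69 and 12.82). PIRs in both replicates of a cell type and in no list of the other were also called for PPARG, RORB, NR5A1, NR1H3 and NR1I3 in ESCs and for NR1H2, NR2E3 and NR1H3 in NECs, with merged scores of 12.63 to 17.42. The share of all promoter fragments with such PIRs is not given here, so their number among receptors has no background. The lists hold only scores of at least 12, so a PIR in no list of a cell type can still score just under 12 there.

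Change in expression and change in PIR number showed little relation across the receptors. Over the 25 tested receptors with a captured promoter, Spearman's rho between the log2 fold change and the difference in merged PIRs was 0.0867, as a description over genes that share the same libraries. The fragments also hold other gene starts for some receptors (OSTM1 with NR2E1, ACP2 with NR1H3, NKIRAS1 with NR1D2, TOMM40L with NR1I3). That of ESRRA holds the start of KCNK4 among others. Those of ESR2, THRB, HNF4A, RORB, NR4A3, NR5A1 and NR6A1 each hold the start of a gene with a clone-based name. Contacts of all these fragments, as given above, cannot be assigned to the receptor or to the other gene.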

How the data were processed

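RNA-seq and PCHi-C of ESCs and NECs were analysed, with 2 biological replicates of each, and the conventional Hi-C libraries were not used here. The authors trimmed the RNA-seq reads, aligned them to GRCh37 (TopHat2 2.0.8b and Bowtie 1.0.0 in the submitters' processing notes) and counted them per Ensembl gene without regard to strand, and the deposited values are raw counts. For PCHi-C, the authors mapped reads to GRCh37, removed duplicates and called contacts with CHiCAGO per replicate and on merged replicates, and the deposited lists hold a score of at least 12 for pairs of HindIII fragments.

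Counts were filtered by filterByExpr (minimum count 10), scaled by TMM and tested with edgeR 4.0.16 (quasi-likelihood) in R 4.3.3, after a check on simulated data. A call required a Benjamini-Hochberg adjusted p below 0.05 together with a log2 fold change beyond ±1.5. DESeq2 1.42.0 was an alternative, beside other scalings and filters, the adjusted p alone, a replicate block and leaving out each replicate, and for contacts a score of 15, other promoter starts, PIRs that are no baits and PIRs within 10 kb. Errors of log2 fold changes are SEs from the F statistic. Bounds against 0 use 3 counts over the group and cover counting error only. Exon lengths and overlaps came from GENCODE v44 on GRCh37, with NR2E3 matched by symbol. Contacts were analysed in Python 3.11.15.

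Members and gene lists were chosen with earlier results of these data known. Every member is named. Of other list genes, those called with the largest changes are named, at most 2 in each direction, and RARB, ESRRB, RXRA, OTX2, FKBP4, FKBP5 and chaperone values were added after their values were seen. Named PIRs are the highest-scoring of promoters with at least 5 and those found in all 4 replicates or restricted to a cell type, at most 2 per promoter, and those of THRB, PPARA, HNF4A and NR0B1, the MED24 contact and contacts between receptors were added after their values were seen. Some items that these rules would name are not reported here.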

Additional observations from a re-analysis of the deposited data

How the results depend on the processing

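Without a filter on low counts 5 receptors were called higher (PPARG, NR2E1 and NR5A1 beside PPARA and HNF4A) and 6 lower (VDR in addition), and with at least 1 CPM in 2 libraries 3 were called lower, since PGR and NR0B1 were no longer tested. By the adjusted p alone 9 receptors were higher and 9 lower, against 29 and 31 of the partner, ligand and target genes and 5529 and 5209 of all genes. Leaving out each replicate in turn gave 2 to 4 receptors called higher and 3 to 5 lower, with PPARA, NR3C1, THRB and NR5A2 called each time. It moved the log2 fold change of RORA between -0.59 and 0.45 and that of NR4A3 between -0.34 and 1.74. The other scalings changed no receptor's call.

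At a score of at least 15, 44 ESC and 42 NEC PIRs of the receptor promoters were left, with 22 in common. At that score 0 of the receptor promoters had more PIRs in NECs with replicate ranges apart, against 6.55% of all promoter fragments. With PIRs that are not baits 6 had fewer, against 11.3% of all promoter fragments. Replacing a merged list by a single replicate left 30 to 56 shared PIRs, the lowest without NEC replicate 1.

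Replicate numbers are shared by the cell types, but deviations of same-numbered libraries correlated at 0.061 over 17564 genes, so the numbers were not taken as a pairing. With the replicate block 2 receptors were called higher and 5 lower, and no receptor changed its call, while the adjusted p of HNF4G became 0.0602 and that of NR1D1 0.0456 in edgeR.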

Other observations

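Receptor promoters were also reached from other captured promoters. The PPARD promoter was a PIR of 2 captured fragments in ESCs and 4 in NECs, among them that with the starts of RPL10A and FANCE. The highest score over these fragments was 40.25 in ESCs and 41.25 in NECs, near that of the strongest contact of NR6A1. Called from the PPARD side, the fragment of RPL10A and FANCE scored 12.65 and 14.97. The NR6A1 promoter was called from 2 captured fragments in each cell type, among them that of RPL35 and ARPC5L, with highest scores of 24.03 and 27.42. VDR was called from 2 captured promoters in ESCs and 6 in NECs, among them HDAC7 and RAPGEF3, with scores of up to 14.52, while its counts were 8 and 10 in ESCs and 2 and 1 in NECs. None of these values was tested between cell types.

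A second captured fragment at another transcript start existed for 4 receptors, ESRRA, VDR, NR1H2 and NR1H3. The inner fragment of NR1H3 had 13 and 12 PIRs in single ESC replicates against 4 and 2 in NECs, with 14 and 9 in the merged lists and 5 shared. Its ranges lay apart in the same direction as those of the outer fragment, and it holds the start of MADD as well. The inner fragment of NR1H2 had 1 and 4, then 1 and 1, so its ranges overlapped, unlike those of the outer fragment. That of ESRRA had 0 and 0, then 3 and 2, with ranges apart, and it holds the starts of TRMT112 and PRDX5 as well. That of VDR had 0 and 2, then 0 and 1, with ranges that overlapped.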
